A study of Mus musculus with 4 samples.

Results

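The genes described here are 40 antiviral interferon-stimulated genes, a list of gene symbols that were looked up in the authors' deposited table of a comparison of sorted mouse oral tumour cells. The table held 39 of the 40 under those symbols, among 37574 genes in all, and all 39 were among the 16219 genes the authors tested. The remaining member, Ifi27, stood in the table under its older symbol Ifi27l1 and was found by its Ensembl ID. It is given below by name and is left out of the counts unless stated. The 40 members were chosen by name and not by any value, but with earlier results of these data known.

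RNA came from EpCAM-positive cells of oral tumours, sorted as Tomato-positive (2 samples) or Tomato-negative (2 samples). All mice were C57BL/6 and carried Bmi1CreER and a tdTomato reporter, and both fractions shared 26 weeks of 4NQO, a carcinogen that damages DNA, and a tamoxifen injection 24 hours before collection. The label depends on the Bmi1 promoter, which drives a Cre that tamoxifen activates, so the Tomato-positive fraction holds EpCAM-positive cells in which that Cre had acted, and the Tomato-negative fraction holds the other EpCAM-positive cells. Whether both samples of 1 fraction are from different animals is not stated in the labels. The comparison asked how transcripts differ between the Bmi1-labelled and the unlabelled EpCAM-positive cells of the tumours.

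The table gives 1 FPKM per gene and fraction, the authors' group value, in fragments per kilobase of transcript scaled to library size. No SD can be given for such a value, and sequencing depth is unknown. Any spread between samples enters only through the authors' p-value and q-value, and p-values over these samples may measure technical spread. A gene was called where the authors' q, their p-value adjusted over all tested genes, was below 0.05. The lowest q in the authors' deposited table is 0.000405, and 25 of the 39 members carry it. Folds and log2 folds are Tomato-positive over Tomato-negative, computed from the FPKM values. Bmi1 itself stood at 7.03 FPKM in Tomato-positive cells and 3.11 FPKM in Tomato-negative cells, and was called higher at q = 0.00109 in the authors' deposited table. Epcam, the surface protein of the sort, was present in both fractions, at 46.4 FPKM in Tomato-positive cells and 25.1 FPKM in Tomato-negative cells. It too was called higher, at q = 0.000405 in the authors' deposited table.

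Interferons are secreted proteins that warn cells of viral infection. Type I and type III interferons bind different receptors, but both act through the kinases JAK1 and TYK2 on the transcription factor complex ISGF3, which holds STAT2 and IRF9. ISGF3 binds the interferon-stimulated response element, a short sequence near the start of many antiviral genes. Keratinocytes and other epithelial cells carry this pathway, and several of its products (the RNA sensors, STAT2, IRF7 and IRF9) are part of the pathway itself and amplify it.

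The element was looked for in promoters from RefSeq (build GRCm38.p6), each 250 bases before and 50 bases after a transcript start. The core searched was GAAA, any 2 bases and GAAA again, on either strand, and neighbouring cores may overlap. A promoter was listed for 30 of the 39 members. In the 250 bases before the start 8 of these 30 held at least 1 core, against 2.98% of all 32851 promoters in the table (3.46% of its genes). With the 50 bases after the start included, 13 of 30 members held a core, against 3.44% of all promoters (3.99% of genes). The other core searched was TTC, any 3 bases and GAA, that of the gamma-activated site, known from responses to interferon gamma. It was found before the start in 6 of 30 members, and in 7.02% of promoters (8.13% of genes). A match is a description of the letters only.

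The stretches shown are the 160 bases before the start of the 6 members with a core there that had the largest called folds, since these are the letters through which ISGF3 is known to act. Capitals mark the cores. They lie at chr19:34640729-34640888 (Ifit1, plus strand), chr5:120777660-120777819 (Oas3, minus strand), chr19:34583369-34583528 (Ifit3, plus strand), chr4:156200819-156200978 (Isg15, minus strand), chr5:120907526-120907685 (Oas1a, minus strand) and chr8:71537473-71537632 (Bst2, minus strand), all in GRCm38.p6, and each is written along the gene's own strand.
Ifit1: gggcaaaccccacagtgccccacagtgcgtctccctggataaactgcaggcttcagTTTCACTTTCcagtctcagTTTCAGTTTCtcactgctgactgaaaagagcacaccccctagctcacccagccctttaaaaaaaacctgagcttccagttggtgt
Oas3: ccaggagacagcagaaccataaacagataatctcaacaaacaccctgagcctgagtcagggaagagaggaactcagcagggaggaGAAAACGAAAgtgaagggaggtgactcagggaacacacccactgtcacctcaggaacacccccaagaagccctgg
Ifit3: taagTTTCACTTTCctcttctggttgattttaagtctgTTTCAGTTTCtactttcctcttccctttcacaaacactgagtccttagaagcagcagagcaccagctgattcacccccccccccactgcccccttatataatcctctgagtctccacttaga
Isg15: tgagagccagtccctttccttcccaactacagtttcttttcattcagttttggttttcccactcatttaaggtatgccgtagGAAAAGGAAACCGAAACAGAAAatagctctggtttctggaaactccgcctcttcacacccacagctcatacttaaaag
Oas1a: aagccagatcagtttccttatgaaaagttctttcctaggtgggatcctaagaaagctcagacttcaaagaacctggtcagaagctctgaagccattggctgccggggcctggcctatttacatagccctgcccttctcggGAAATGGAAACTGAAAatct
Bst2: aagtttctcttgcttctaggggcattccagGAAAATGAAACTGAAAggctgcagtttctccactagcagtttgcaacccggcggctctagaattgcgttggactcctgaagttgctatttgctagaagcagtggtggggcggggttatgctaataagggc

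Ifit1 and Ifit3 each hold 2 separate cores in reverse orientation. Isg15 holds a run of 3 overlapping cores that begin 78, 72 and 66 bases before the start, and Oas1a and Bst2 hold 2 overlapping cores each. The remaining members with a core before the start were Stat2 and Rsad2.

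**Figure D1:**
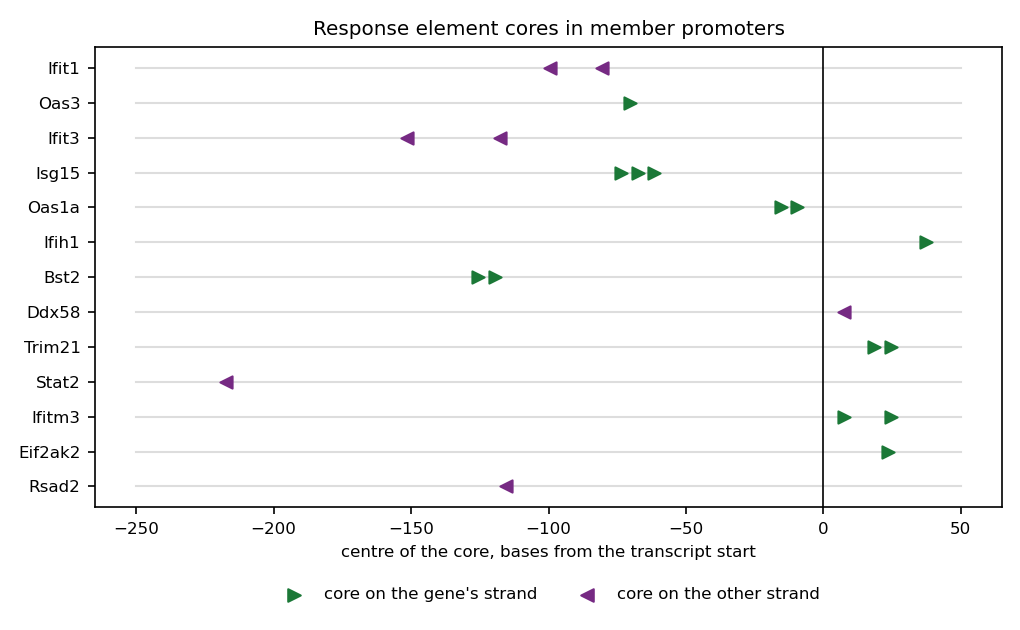
Position of each response element core (GAAA, any 2 bases, GAAA) in the RefSeq promoters of the 13 members that hold 1, in bases from the transcript start, with genes in order of log2 fold from the lowest. Of these, 8 members have a core before the start, and in Ifih1, Ddx58, Trim21, Ifitm3 and Eif2ak2 every core lies after it.

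Transcripts of the antiviral genes were lower in the Tomato-positive fraction almost throughout the set. Of the 39 members 35 fell, 1 rose (Isg20) and 3 did not pass the test (Dhx58, Mx1 and Rsad2). Over all tested genes, 14.2% were called lower and 13% higher. The median log2 fold of the members was -2.30, with quartiles of -3.28 and -1.34, and the median over the 16010 tested genes with a fold was 0.02. Calls of at least 4-fold lower were made for 22 members, against 4.13% of tested genes, and 11 of these were at least 8-fold. In bulk RNA, fewer cells of a type and less RNA per cell cannot be told apart. With Ifi27 (71.1 FPKM in Tomato-positive cells, 189 FPKM in Tomato-negative cells, called lower), 36 of 40 fell.

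**Figure D2:**
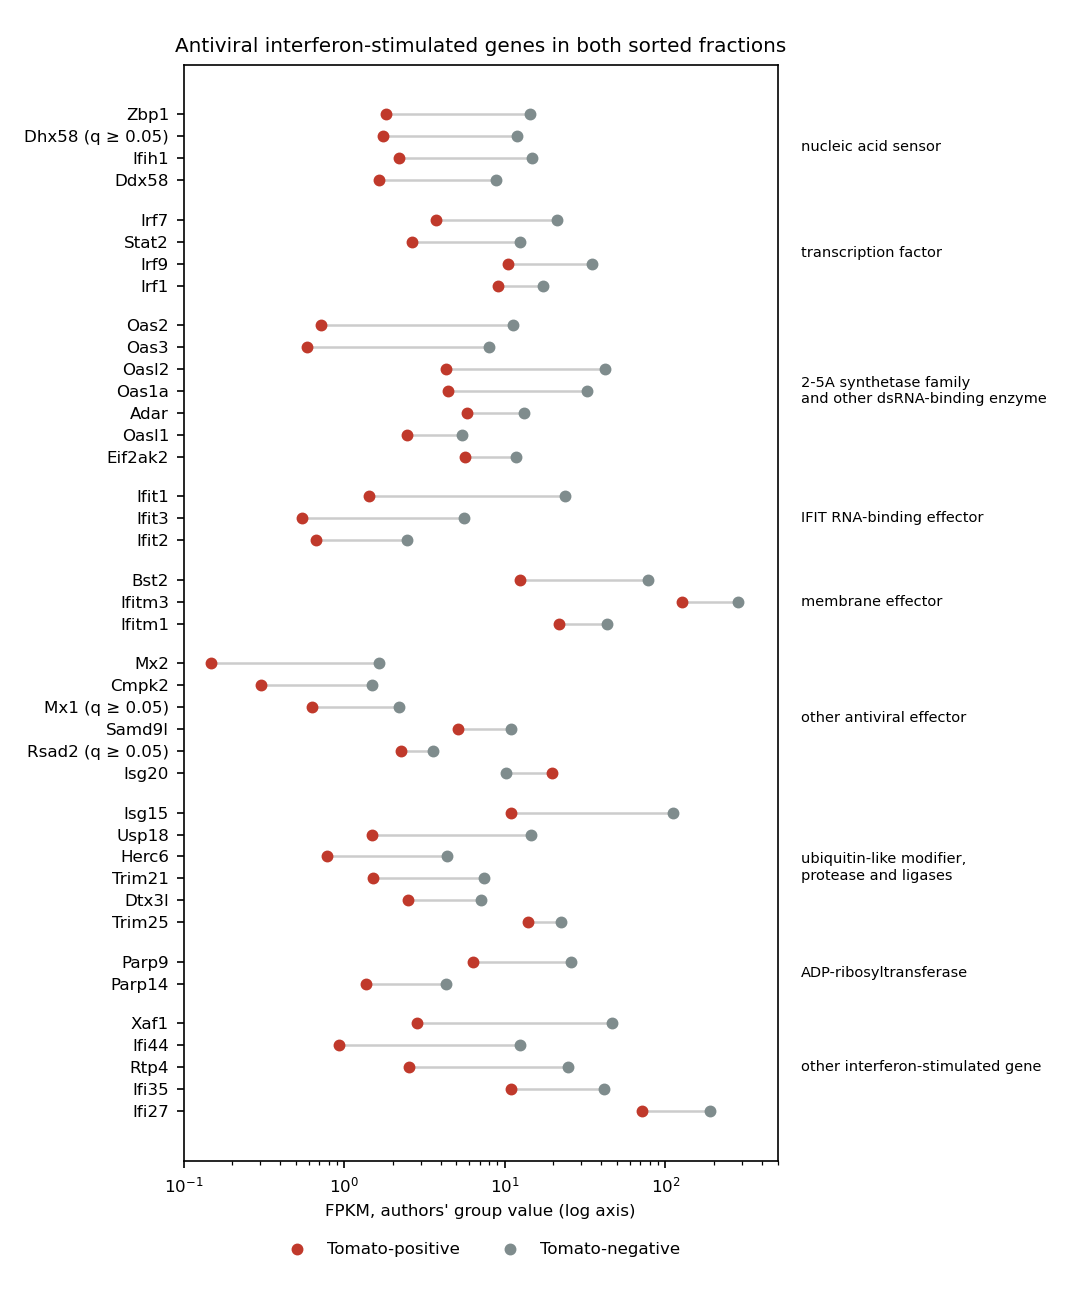
FPKM of the 40 members (log axis), grouped by role, in Tomato-positive (red) and Tomato-negative (grey) cells, 1 group value per fraction with no error bar; Ifi27 was found by its Ensembl ID. The red point lies left of the grey point for every member but Isg20, and the widest gaps are those of Ifit1, Xaf1 and Oas2.

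**Figure D3:**
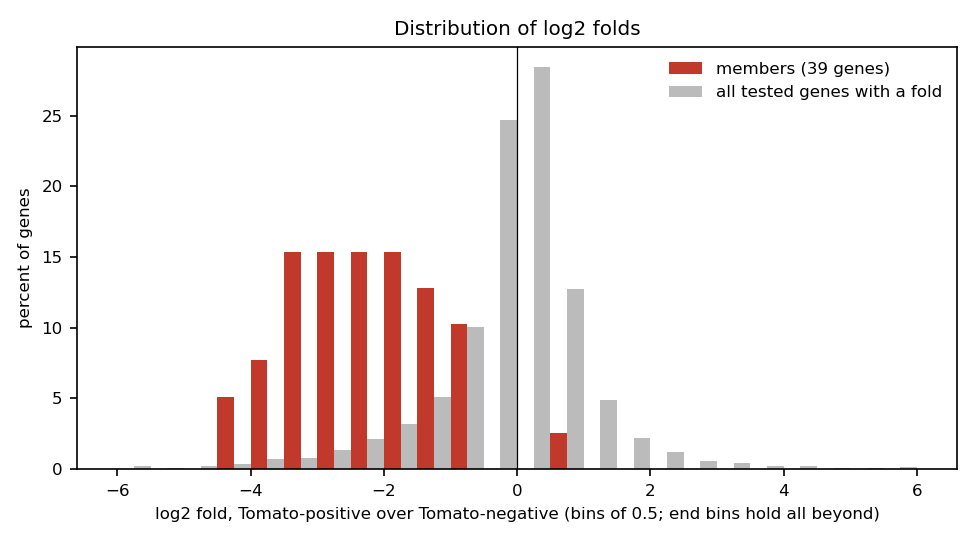
Percent of genes in bins of log2 fold, for the 39 members (red) and the 16010 tested genes with a fold (grey). Below a log2 fold of -2 lie 59.0% of members and 5.87% of all tested genes with a fold.

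Next to all tested genes, the members' levels were low in Tomato-positive cells only. The median member stood at 2.49 FPKM in Tomato-positive cells and 12.5 FPKM in Tomato-negative cells. The medians over all tested genes were 10.3 FPKM in Tomato-positive cells and 10.1 FPKM in Tomato-negative cells. In Tomato-positive cells 26 members were under 5 FPKM, against 7 in Tomato-negative cells. Ifitm3 was the most abundant member in both, and Ifi27 came next. Isg20 ranked 4 of 40 by FPKM in Tomato-positive cells and 27 of 40 in Tomato-negative cells. No member was listed at 0 in either fraction.

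The cytosolic nucleic acid sensors start the response to viral RNA and DNA, and 3 of the 4 fell. Ifih1, which encodes MDA5, a sensor of long double-stranded RNA, had 2.19 FPKM in Tomato-positive cells and 14.7 FPKM in Tomato-negative cells, a log2 fold of -2.75. Ddx58, which encodes RIG-I, a sensor of RNA ends, had 1.64 FPKM in Tomato-positive cells and 8.85 FPKM in Tomato-negative cells. Zbp1, a sensor of Z-form nucleic acids that can trigger necroptosis, had 1.82 FPKM in Tomato-positive cells against 14.4 FPKM in Tomato-negative cells. Each of the 3 had q = 0.000405 in the authors' deposited table. Dhx58 (LGP2), a relative of RIG-I that regulates both RNA sensors, was listed at 1.75 FPKM in Tomato-positive cells and 11.9 FPKM in Tomato-negative cells. Its log2 fold, -2.77, lay within the range of the sensors that passed, but its q was 0.103 in the authors' deposited table. Its row is one of 9 member rows whose locus overlaps that of another gene, so that reads can be shared between them. The others are those of Irf1, Irf7, Irf9, Oasl1, Eif2ak2, Parp9, Dtx3l and Ifi35.

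All 4 transcription factors fell, and they did so by unequal amounts. The loci of Irf1, Irf7 and Irf9 each overlap that of another gene, so their reads can be shared. Stat2, which brings the activating domain of ISGF3, had 2.65 FPKM in Tomato-positive cells and 12.5 FPKM in Tomato-negative cells (log2 fold -2.24). Irf9, the DNA-binding subunit of ISGF3, stood at 10.4 FPKM in Tomato-positive cells and 35.04 FPKM in Tomato-negative cells (-1.75). For Irf7, which amplifies type I interferon production, the values were 3.74 FPKM in Tomato-positive cells and 21.2 FPKM in Tomato-negative cells (-2.51), with q = 0.0180 in the authors' deposited table. Irf1, which interferon gamma induces, had the smallest fold of the 4, at 9.13 FPKM in Tomato-positive cells against 17.2 FPKM in Tomato-negative cells (-0.92).

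The enzymes that bind double-stranded RNA fell in 7 of 7 members. The oligoadenylate synthetases Oas1a, Oas2 and Oas3 make a product that activates the RNA-degrading enzyme RNase L. Oas2, with the largest fold of the 7, stood at 0.719 FPKM in Tomato-positive cells and 11.3 FPKM in Tomato-negative cells (log2 fold -3.97). Oas3 had 0.590 FPKM in Tomato-positive cells and 7.97 FPKM in Tomato-negative cells (-3.76), and Oas1a 4.44 FPKM in Tomato-positive cells and 32.5 FPKM in Tomato-negative cells (-2.87). The related Oasl2 fell to 4.30 FPKM in Tomato-positive cells, against 41.8 FPKM in Tomato-negative cells, while its neighbour Oasl1, which in mice represses translation of Irf7, was at 2.48 FPKM in Tomato-positive cells and 5.45 FPKM in Tomato-negative cells (-1.14, q = 0.0208 in the authors' deposited table). Eif2ak2, the kinase PKR that halts translation, had 5.62 FPKM in Tomato-positive cells against 11.7 FPKM in Tomato-negative cells, and Adar, which edits adenosines in double-stranded RNA, 5.84 FPKM in Tomato-positive cells against 13.2 FPKM in Tomato-negative cells. Oasl1, Eif2ak2 and Adar differed by little more than 2-fold. Of the neighbouring Oas1 copies in the wider list, Oas1g (3.43 FPKM in Tomato-positive cells, 22.5 FPKM in Tomato-negative cells) and Oas1b (0.759 FPKM in Tomato-positive cells, 3.75 FPKM in Tomato-negative cells) also fell, and Oas1c did not pass (q = 0.319 in the authors' deposited table).

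Ifit1, Ifit2 and Ifit3, effectors that bind viral RNA and one another, all fell with q = 0.000405 in the authors' deposited table. Ifit1 (chromosome 19, 34715360 to 34724499, mm9) had the largest fold of all members, with 1.42 FPKM in Tomato-positive cells and 23.6 FPKM in Tomato-negative cells, a log2 fold of -4.05. Ifit3 had 0.546 FPKM in Tomato-positive cells and 5.57 FPKM in Tomato-negative cells. For Ifit2 the values were 0.672 FPKM in Tomato-positive cells and 2.46 FPKM in Tomato-negative cells, a smaller log2 fold of -1.87. Neighbouring copies in the same chromosome 19 cluster, given from the wider list of interferon-stimulated genes for their place beside the members, had values of the same direction. Ifit1bl1 stood at 0.232 FPKM in Tomato-positive cells and 6.82 FPKM in Tomato-negative cells, and Ifit3b at 0.329 FPKM in Tomato-positive cells and 3.30 FPKM in Tomato-negative cells, both called lower. Reads can be divided between near-identical copies, so separate values within the Ifit, Oas1 and Ifitm families are uncertain.

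The membrane effectors all fell, both Ifitm genes by smaller folds than Bst2. Ifitm3, which blocks viral fusion in endosomes, had 128 FPKM in Tomato-positive cells and 282 FPKM in Tomato-negative cells (log2 fold -1.14). Ifitm1 had 21.7 FPKM in Tomato-positive cells and 43.2 FPKM in Tomato-negative cells (-0.99). Their neighbour on chromosome 7, Ifitm2, which is no member, was listed at 158 FPKM in Tomato-positive cells and 154 FPKM in Tomato-negative cells, with q = 0.926 in the authors' deposited table. Bst2, or tetherin, which holds budding virus at the cell surface, had a larger fold, with 12.4 FPKM in Tomato-positive cells against 78.3 FPKM in Tomato-negative cells (-2.65).

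The remaining antiviral effectors were the only role group with a member that rose. Isg20, an exonuclease that degrades single-stranded RNA (chromosome 7, 86058309 to 86065248, mm9), had 19.7 FPKM in Tomato-positive cells and 10.2 FPKM in Tomato-negative cells, a log2 fold of 0.94 with q = 0.00142 in the authors' deposited table. Its 3 listed promoters held no core. Cmpk2, a mitochondrial nucleotide kinase, fell to 0.304 FPKM in Tomato-positive cells, against 1.49 FPKM in Tomato-negative cells. Rsad2 (viperin), which makes a chain-terminating nucleotide and lies beside Cmpk2 on chromosome 12, was listed at 2.25 FPKM in Tomato-positive cells and 3.58 FPKM in Tomato-negative cells and did not pass (q = 0.263 in the authors' deposited table). Mx2, a dynamin-like GTPase, had 0.149 FPKM in Tomato-positive cells and 1.66 FPKM in Tomato-negative cells and fell at q = 0.0109 in the authors' deposited table. Mx1, its paralog, which is defective in C57BL/6 mice, was listed at 0.627 FPKM in Tomato-positive cells and 2.19 FPKM in Tomato-negative cells, with q = 0.102 in the authors' deposited table. Samd9l, a restriction factor that represses translation, fell to 5.09 FPKM in Tomato-positive cells, against 10.97 FPKM in Tomato-negative cells.

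The genes of ubiquitin-like modification and of ubiquitin ligases fell in 6 of 6 members. Isg15, a ubiquitin-like protein that is attached to other proteins, had 11.002 FPKM in Tomato-positive cells and 112 FPKM in Tomato-negative cells (log2 fold -3.35). Usp18, the protease that removes ISG15 and also dampens the type I receptor, had 1.48 FPKM in Tomato-positive cells and 14.6 FPKM in Tomato-negative cells (-3.31). Herc6, the ISG15 ligase of mice, stood at 0.778 FPKM in Tomato-positive cells and 4.35 FPKM in Tomato-negative cells. From the wider set, the ISG15-activating enzyme Uba7 had 1.98 FPKM in Tomato-positive cells and 14.8 FPKM in Tomato-negative cells and was called lower at q = 0.0488 in the authors' deposited table. Among the ubiquitin ligases, the cytosolic antibody receptor Trim21 had 1.504 FPKM in Tomato-positive cells and 7.43 FPKM in Tomato-negative cells, and Trim25, which activates RIG-I, 13.99 FPKM in Tomato-positive cells and 22.5 FPKM in Tomato-negative cells. Trim25 had the smallest fold among the members that fell, -0.68 on the log2 scale. Dtx3l, a ubiquitin ligase that works in a complex with PARP9, had 2.49 FPKM in Tomato-positive cells and 7.07 FPKM in Tomato-negative cells, just past the threshold at q = 0.0481 in the authors' deposited table.

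Both ADP-ribosyltransferase genes fell. Parp9 had 6.30 FPKM in Tomato-positive cells against 25.7 FPKM in Tomato-negative cells, and Parp14 1.36 FPKM in Tomato-positive cells against 4.32 FPKM in Tomato-negative cells. The table gives Parp9 and Dtx3l the same joined locus. Of the less well characterised members, Xaf1, a promoter of apoptosis, fell to 2.86 FPKM in Tomato-positive cells, against 46.8 FPKM in Tomato-negative cells (log2 fold -4.03), second only to Ifit1. Ifi44 had 0.934 FPKM in Tomato-positive cells and 12.4 FPKM in Tomato-negative cells (-3.73). Rtp4, named as a receptor transporter protein, stood at 2.55 FPKM in Tomato-positive cells and 24.8 FPKM in Tomato-negative cells (-3.29). Ifi35 stood at 10.95 FPKM in Tomato-positive cells and 41.8 FPKM in Tomato-negative cells (-1.93).

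The folds of members with and without a core before the start overlapped widely. The 8 members with a core before the start had a median log2 fold of -3.11 and a range of -4.05 to -0.67. The 22 members whose listed promoters held no core before the start had a median of -1.81 and a range of -4.03 to 0.94. Xaf1, Ifi44 and Oasl2, with large folds, were in this second set. No test was made of these medians.

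Upstream of the members, the other steps of the pathway did not move as a block. Interferon ligand genes were not tested by the authors in any of 20 listed cases. Interferon gamma (Ifng) was listed at 0 FPKM in Tomato-positive cells and 0.438 FPKM in Tomato-negative cells, and the keratinocyte interferon Ifnk at 0.305 FPKM in Tomato-positive cells and 0 FPKM in Tomato-negative cells. Ifne and Ifnz were under 0.2 FPKM in both fractions, and the other 16 were listed at 0 in both.

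Among 9 receptor and JAK kinase genes, 2 fell and 2 rose, against 14.2% called lower and 13% called higher over all tested genes. Both chains of the type III receptor fell, Ifnlr1 with 1.45 FPKM in Tomato-positive cells and 2.79 FPKM in Tomato-negative cells, and Il10rb with 18.1 FPKM in Tomato-positive cells and 29.0 FPKM in Tomato-negative cells. Their log2 folds were -0.95 and -0.68, and neither was called where at least 2-fold was required. Il10rb (q = 0.0115 in the authors' deposited table) is listed with the same joined locus as Ifnar2, so reads can be shared between them. The interferon gamma receptor chain Ifngr2 rose, with 14.4 FPKM in Tomato-positive cells and 7.59 FPKM in Tomato-negative cells, as did the kinase Jak2, with 13.4 FPKM in Tomato-positive cells and 7.90 FPKM in Tomato-negative cells. Neither of these rises was called where at least 2-fold was required. The type I receptor chains did not pass the test: Ifnar1 was listed at 7.24 FPKM in Tomato-positive cells and 5.87 FPKM in Tomato-negative cells (q = 0.335 in the authors' deposited table), and Ifnar2 at 9.15 FPKM in Tomato-positive cells and 7.66 FPKM in Tomato-negative cells (q = 0.740 in the authors' deposited table). Ifngr1, Jak1 and Tyk2 did not pass either, with log2 folds of -0.19, 0.32 and -0.07.

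Inhibitors of the pathway rose in 3 of 6 genes, against 13% called higher over all tested genes. At q below 0.01 only Socs1 was called higher, and where at least 2-fold was required, Socs1 and Socs3 were. Socs1, which blocks JAK kinases, had 13.9 FPKM in Tomato-positive cells and 5.80 FPKM in Tomato-negative cells (log2 fold 1.26). Socs3, which mainly restrains STAT3, had 43.6 FPKM in Tomato-positive cells and 12.9 FPKM in Tomato-negative cells (1.76, q = 0.0388 in the authors' deposited table). The phosphatase gene Ptpn2 stood at 25.1 FPKM in Tomato-positive cells and 16.8 FPKM in Tomato-negative cells. Ptpn1, Ptpn6 and Pias1 did not pass, with log2 folds of 0.72, -0.18 and -0.25.

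Adaptors and upstream factors were called in 4 of 15 tested genes, 3 lower (20%) and 1 higher. Over all tested genes, 14.2% were called lower and 13% higher. Traf3 rose, with 6.98 FPKM in Tomato-positive cells and 3.82 FPKM in Tomato-negative cells, but was not called where at least 2-fold was required. The double-stranded RNA receptor Tlr3 (0.843 FPKM in Tomato-positive cells, 2.29 FPKM in Tomato-negative cells), the DNA sensor cGAS (Mb21d1; 2.37 FPKM in Tomato-positive cells, 4.71 FPKM in Tomato-negative cells) and its adaptor STING (Tmem173; 1.15 FPKM in Tomato-positive cells, 2.41 FPKM in Tomato-negative cells) fell. Those 3 were named after their values were seen. Where 5 FPKM or more in 1 fraction was required, 0 genes of this list were called lower. The adaptors Mavs, Myd88 and Ticam1, the kinase Tbk1 and the factor Irf3 did not pass.

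The wider list of 48 interferon-stimulated genes gave 22 lower and 3 higher calls, against 14.2% and 13% of all tested genes. Its median log2 fold was -0.91, a smaller fall than the median of the 39 members. Ifi27l2a was the most abundant of those that fell, with 66.5 FPKM in Tomato-positive cells and 867 FPKM in Tomato-negative cells. Lgals3bp, a secreted glycoprotein, had 3.90 FPKM in Tomato-positive cells and 32.6 FPKM in Tomato-negative cells. Those that rose were the DNA exonuclease gene Trex1, with 36.0 FPKM in Tomato-positive cells and 15.3 FPKM in Tomato-negative cells, Ifi204 (13.6 FPKM in Tomato-positive cells, 8.999 FPKM in Tomato-negative cells) and Slfn9 (4.58 FPKM in Tomato-positive cells, 3.14 FPKM in Tomato-negative cells), the last named after its values were seen. Where at least 2-fold was required, only Trex1 of these was called higher. The authors' test compares fractions gene by gene, and no difference between lists was tested.

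**Figure D4:**
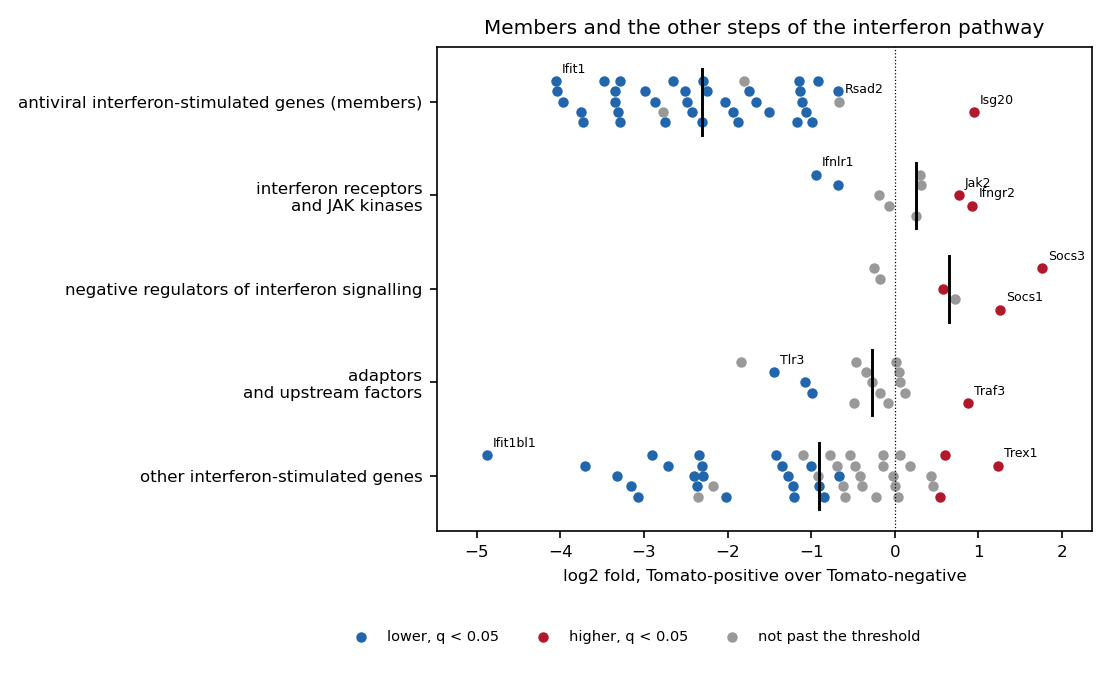
Log2 fold, Tomato-positive over Tomato-negative, of each tested gene with a fold among the 39 members and 4 lists of other pathway genes. Each point is 1 gene, blue where called lower, red where called higher and grey where q was 0.05 or more, and black bars are medians, which run from -2.30 for the members to 0.65 for the negative regulators.

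Markers of other cell types moved in the same comparison, in which 14.2% of all tested genes were called lower and 13% higher. Macrophage and conventional dendritic cell markers fell in 8 of 12 tested genes, and the list summed to 186 FPKM in Tomato-positive cells and 674 FPKM in Tomato-negative cells. T and NK cell markers summed to 7.58 FPKM in Tomato-positive cells and 37.8 FPKM in Tomato-negative cells, with 2 of 8 tested genes lower and Ncr1 at 0 in Tomato-positive cells. Plasmacytoid dendritic cells are known for abundant Bst2 and Irf7, and of their markers 1 of 5 tested genes fell and 1 rose. That list summed to 49.6 FPKM in Tomato-positive cells and 79.4 FPKM in Tomato-negative cells. Klk1 alone differed by more than these sums did, at 0.0604 FPKM in Tomato-positive cells and 31.9 FPKM in Tomato-negative cells, which did not pass (q = 0.404 in the authors' deposited table). The gene that fell was Cox6a2, which skeletal muscle also expresses, with 3.38 FPKM in Tomato-positive cells and 16.9 FPKM in Tomato-negative cells. The gene that rose was Ly6c2, with 33.0 FPKM in Tomato-positive cells and 19.5 FPKM in Tomato-negative cells. The defining marker Siglech was listed at 0.0408 FPKM in Tomato-positive cells and 0.159 FPKM in Tomato-negative cells, while Cd300c was at 0 in Tomato-negative cells. The pan-leukocyte gene Ptprc was listed at 4.93 FPKM in Tomato-positive cells and 3.42 FPKM in Tomato-negative cells, with q = 0.0644 in the authors' deposited table.

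Fibroblast and pericyte markers fell in 8 of 8 genes (sums of 96.2 FPKM in Tomato-positive cells and 571 FPKM in Tomato-negative cells) and skeletal muscle markers in 7 of 8 (73.6 FPKM in Tomato-positive cells and 952 FPKM in Tomato-negative cells). Neutrophil markers rose in 7 of 9 and fell in 1 (11008 FPKM in Tomato-positive cells and 1596 FPKM in Tomato-negative cells, most of it from S100a8 and S100a9, which keratinocytes also make), and endothelial markers rose in 5 of 6 (34.9 FPKM in Tomato-positive cells and 15.9 FPKM in Tomato-negative cells). Keratinocyte and epithelial markers rose in 5 of 8 and summed to 25784 FPKM in Tomato-positive cells and 8796 FPKM in Tomato-negative cells, and were present in both fractions. The part of these other cells in the members' folds was not tested.

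**Figure D5:**
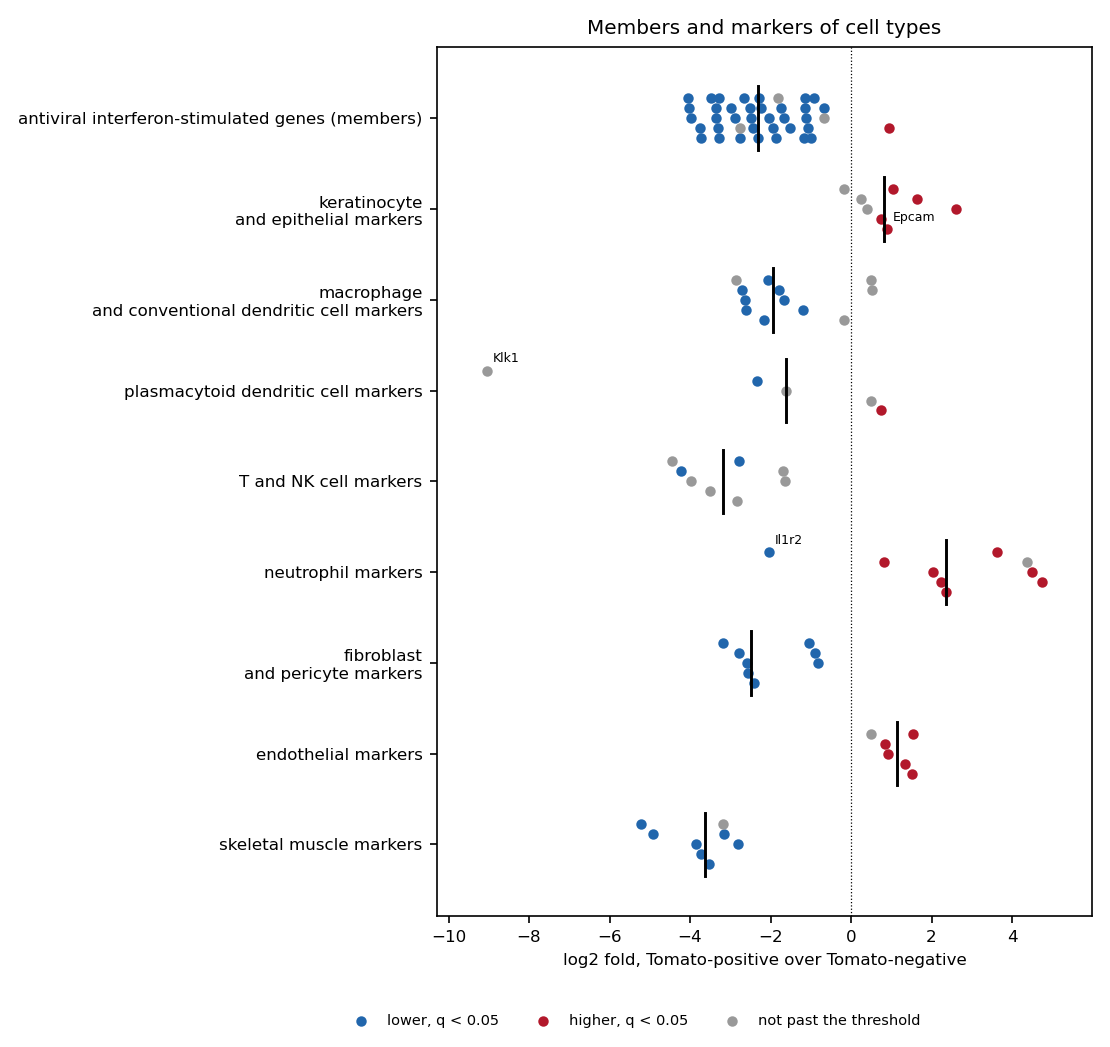
Log2 fold, Tomato-positive over Tomato-negative, of each tested gene with a fold among the 39 members and 8 lists of cell type markers, with colours and median bars as in the plot of pathway genes. Macrophage, T and NK cell, fibroblast and muscle lists have medians between -3.63 and -1.93, near or below the members' median of -2.30, and neutrophil, endothelial and keratinocyte lists have medians above 0.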

How the data were processed

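RNA-seq of sorted EpCAM-positive oral tumour cells was used, 2 Tomato-positive and 2 Tomato-negative samples. The submitters' processing notes name the tools TopHat and Cuffdiff and the build mm9, and give no versions, annotation or strand settings. The deposited file has, by its header, 1 FPKM per gene and fraction, joining both samples, and the authors' p-value and q-value for each gene. The q-values differed from a Benjamini-Hochberg adjustment over the 16219 tested genes by at most 5.27e-07. No values per sample were used, so the authors' q stood as the test and depth is unknown. FPKM is relative to the library, so small RNA rows, which held 38.2% of the FPKM sum in Tomato-positive and 36.4% in Tomato-negative cells, affect its scale.

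The deposited log2 cells included 2111 spreadsheet errors, so log2 folds were computed from FPKM without a pseudocount. For every member they were within 0.01 of the deposited value. Loci are mm9 as deposited. Members were grouped by 9 roles. The members and the lists (5 of pathway genes, 8 of cell type markers) were chosen with earlier results of these data known. Of 176 list genes, 10 were matched by an older symbol or Ensembl ID and 1 was unmatched. One further pathway gene is not reported here. The text names all members, all tested receptors, kinases and negative regulators, the 4 largest called folds in each direction of the other pathway lists (5 FPKM or more in 1 fraction), Bmi1 and Epcam, and some neighbours of members. Promoters were scanned on both strands. The scripts were tested on simulated data. Alternatives to the threshold, filters, fold minimum, pseudocount and scaling are given in the closing section. The software was NumPy 2.4.6, pandas 2.3.3 and SciPy 1.17.1 under Python 3.11.15, and figures were drawn with matplotlib 3.10.9.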

Additional observations from a re-analysis of the deposited data

How the results depend on the processing

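The count of members called lower was between 27 and 37 under the alternatives run, the lowest with 30 members counted and the highest at an unadjusted p below 0.05, and the median log2 fold stayed below 0. At q below 0.01, 31 members were lower, and Mx2, Irf7, Oasl1 and Dtx3l no longer passed. With at least 2-fold required, 32 were lower, Trim25, Irf1 and Ifitm1 dropped out, and 0 were called higher, because Isg20 rose by less than 2-fold. At that unadjusted p, 1 member was higher. The median log2 fold was -2.47 where 5 FPKM or more in 1 fraction was required, which left 32 members, -1.84 with a pseudocount of 1, and -2.57 without the 9 members that share a locus. Over the 5 pathway lists, 27 genes were called lower, against 17 at q below 0.01 and 15 with 5 FPKM or more in 1 fraction. The 8 members with a core before the start became 13 with the 50 bases after it included. The centring moved folds by 0.05. No alternative turned the direction of any member's fold. The addition of Ifi27 was chosen after seeing the data.

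No paired analysis was possible because the table holds 1 value per fraction, and fits with the replicate number or without 1 replicate were not run. DESeq2 was not run, since the table holds no counts. Low FPKM values, such as those of Mx2 and Cmpk2, rest on few fragments whose number is unknown.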

Other observations

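Beyond the members, the response element core also stood before the start of other genes that differed between the fractions. Of the tested genes with a listed promoter, 308 held a core there, of which 25.3% were called lower and 9.42% higher. Without the 8 members the shares were 23.7% and 9.67% of 300 genes, and among the 9165 genes with no core they were 16.01% and 13.5%. The list genes, among them the wider interferon-stimulated genes, were not taken out of these shares. Genes with a core outside the members and lists, with 5 FPKM or more in 1 fraction, were called in both directions. Only called genes were kept in this subset, so no share was computed and nothing is read from their number. Apol9a, an apolipoprotein L gene, was listed at 0.825 FPKM in Tomato-positive cells and 22.2 FPKM in Tomato-negative cells, and its near-identical copy Apol9b at 1.06 FPKM in Tomato-positive cells and 20.4 FPKM in Tomato-negative cells. The interferon-inducible GTPase genes Igtp (2.89 FPKM in Tomato-positive cells, 21.3 FPKM in Tomato-negative cells) and Irgm1 (6.21 FPKM in Tomato-positive cells, 29.1 FPKM in Tomato-negative cells) were also called lower. Genes of other families, among them Gstt1, Rcn3 and Mylk (log2 folds of -3.00, -2.72 and -2.65), were called lower with larger folds than Irgm1 (-2.23). B2m, the light chain of MHC class I, stood at 930.1 FPKM in Tomato-positive cells and 1973 FPKM in Tomato-negative cells. The largest called folds among the higher genes of this subset were those of the cytokine gene Il19 (10.2 FPKM in Tomato-positive cells, 0.314 FPKM in Tomato-negative cells), the collagenase gene Mmp13 (19.2 FPKM in Tomato-positive cells, 0.954 FPKM in Tomato-negative cells) and the activin subunit gene Inhbb (10.9 FPKM in Tomato-positive cells, 0.785 FPKM in Tomato-negative cells). The named genes were chosen after their values were seen, the lower ones not in order of fold, and no test was made of the shares.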
